A study of Mus musculus with 26 samples.

Results

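KLF4 is a zinc finger transcription factor of the Krüppel-like family that binds GC-rich sites of the CACCC type and belongs, with OCT4 (Pou5f1), SOX2 and NANOG, to the factors that maintain mouse embryonic stem cells (mESC). The R462A replacement puts an alanine in place of an arginine of its zinc fingers, and the study compared its binding with that of WT KLF4. The mutant KLF4 segments described here are 693 stretches of the mouse genome (mm10) that are shared by the peak lists of both mutant replicates and free of overlap with the peak lists from Klf4-/- cells. They remained from 959 shared stretches, of which 266 (27.7%) overlapped a Klf4-/- peak by at least 1 bp. The mutant lists held 7390 and 5821 peaks, and the 6 lists of this kind held 59425 peaks in all. Of the 693 segments, 195 overlapped a stretch shared by both WT lists and are called common segments, and 498 did not and are called unmatched segments. The name says nothing of single WT lists, since 240 of the 498 (48.2%) overlapped a peak of 1 of them. The counts follow from the choice of segments and carry no test.

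All groups were mESC grown on irradiated feeder cells and separated from them by pre-plating. The paper names KH2 as the line of its mESC and describes the Klf4-/- cells as KLF4 knockout mESC. WT and mutant cells were Klf4-/- cells that had received WT or R462A Klf4 from a lentivirus with a doxycycline-responsive promoter, selected with puromycin and induced with doxycycline, with 2 replicates each. The 2 Klf4-/- lists came from KLF4 ChIP-seq in cells without the factor. The paper removed such peaks to account for a possible lack of antibody specificity. Their titles name ChIP and not M-ChIP or M-ATAC, so by title assay and genotype differ together from the WT and mutant lists. The KLF4 level of WT and mutant cells depended on the vector and the inducer. Cells with their own Klf4 gene and no vector have no PeaKDEck list here. Further data were peaks of KH2 mESC from M-ATAC (ATAC-seq with methylated adaptors and bisulfite conversion, 4 libraries), M-ATAC without conversion (2), ATAC-seq (2), CTCF M-ChIP (2) and CTCF ChIP-seq (2), merged M-ATAC methylation counts, and merged RNA-seq of WT mESC. Nothing in the labels says whether replicates were separate cultures, so each p-value below measures only the spread between these samples.

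The titles of the WT and mutant samples name M-ATAC, whereas their list names carry Klf4 and the methods name the PeaKDEck caller for KLF4. The series also has KLF4 M-ChIP samples of the WT and mutant cells, for which no list is analysed here, so whether these lists hold M-ATAC or KLF4 M-ChIP peaks is not settled, and with it what each list value measures. Values in the lists can be set beside the paper's account, but they do not settle it. Only 0.785% of the peaks in mutant list 1 and 1.99% in mutant list 2 overlapped an ATAC-seq peak of mESC, against 20.5% and 29.4% in the WT lists and 43.2% and 41.4% in the Klf4-/- lists. Few peaks of the mutant lists thus lay in an ATAC-seq peak of mESC. The KLF4 motif GGGCGTGG was in 200 bp windows of 0.176% and 0.275% of mutant peaks and 8.51% and 11.8% of WT peaks. For KLF4 M-ChIP, the paper reports mutant-only peaks at inaccessible sites and reduced binding of the mutant to both KLF4 motifs. The measures are not alike. The paper used M-ATAC signal of the WT and mutant cells at mutant-only peaks, and searches with motif models. The values here are overlaps of whole lists with ATAC-seq peaks of KH2 mESC and counts of an exact word. Which assay the lists hold was not tested. All of these lists are named below by genotype alone. The list names also say that the reads were subsampled, to a depth not given in the sources used here, so the sequencing depth behind each list is unknown.

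Over whole lists, the mutant and WT lists differed in base composition, motif content and location. Mean GC content was 42.9% and 43.7% in the mutant lists and 47.8% and 49.5% in the WT lists. The KLF4 motif GGGCGTGG lay within 200 bp windows centred on 0.176% and 0.275% of mutant peaks and on 8.51% and 11.8% of WT peaks. In all windows of that length in the reference genome its share was 0.434%. GGGTGTGG was at 1.20% and 1.41% of mutant peaks and 7.40% and 8.93% of WT peaks, against 1.16% of all windows. The shares of GGGCGG were 1.04% and 1.15% of mutant peaks and 17.5% and 24.6% of WT peaks, against 1.92% of all windows. Neither GGGTGTGG nor GGGCGG is among the measures counted and tested below. Low-complexity sequence, as masked by dustmasker, made up 39.3% and 30.95% of the bases in mutant peaks and 25.02% and 14.35% in WT peaks. A transcription start site (TSS) lay within 3 kb of 19.8% and 21.3% of mutant peaks and of 34.3% and 42.1% of WT peaks. Overlap with a Klf4-/- peak was found for 9.34% and 10.3% of mutant peaks and 18.4% and 18.2% of WT peaks. The mutant lists were also shorter, with 7390 and 5821 peaks against 9843 and 12365. For these 6 measures, and for the share in an ATAC-seq peak given above, the mutant and WT values did not overlap, whereas the median width was 350 bp in both mutant lists and 350 and 400 bp in the WT lists. With the same number of peaks from each list, those of smallest p-value, the difference in median width (mutant minus WT) went from -25 to -125 bp, and the widths then did not overlap either (exact permutation p 0.3333). The difference in Klf4-/- overlap went from -8.46 to -15.6 percentage points. With 2 lists against 2, the exact two-sided permutation test cannot give a p below 0.3333. The exact permutation p was 0.3333 for each of those 7 measures and 1 for the median width, or 0.381 and 1 after Benjamini-Hochberg adjustment over the 8 measures.

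Mutant replicates shared few peaks. Of the peaks in mutant list 1, 14.5% (95% Wilson interval 13.7 to 15.3, which covers counting error only, as do all such intervals below) overlapped a peak of list 2, and 18.3% (17.4 to 19.3) of list 2 overlapped list 1. The WT lists are longer, and the shares that overlapped them were not set against list length: 17.98% and 13.7% of mutant list 1 overlapped WT lists 1 and 2, and 18.45% and 14.6% of mutant list 2 did. The WT lists shared 37.0% and 29.3% of their peaks with each other and the Klf4-/- lists 65.7% and 40.5%.

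Unmatched and common segments differed in the strength of the peaks that made them, as far as PeaKDEck p-values show it. These p-values are floored at 1e-12 and come from the lists that chose the segments, so they are given as a description. In unmatched segments the median p was 2.65e-05 in mutant list 1 and 4.02e-05 in list 2, where the largest values in those lists were 7.62e-05 and 5.58e-05. In common segments the medians were 1.57e-10 and 1.15e-08. The floor was reached in both mutant lists by 78 of 195 common segments (40.0%, 33.4 to 47.0) and by 4 of 498 unmatched segments (0.803%, 0.313 to 2.05). Across segments, the p-values of the mutant lists had a Spearman rho of 0.15 in the 498 unmatched and 0.64 in the 195 common segments, a description over regions of the same libraries. In the WT lists, common segments had median p-values of 2.58e-06 and 1.51e-05.

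The boundary between the groups was not sharp. Of the 498 unmatched segments, 240 (48.2%) overlapped a peak of WT list 1 or of WT list 2, 158 of them list 1 and 82 list 2, and none overlapped both. List coordinates ran in steps of 50 bp. The smallest WT overlap among common segments was 50 bp, found in 6 segments, and 101 common segments lay wholly inside WT stretches. On the other side, the nearest unmatched segment was 50 bp from a WT stretch and 12 lay within 1 kb of one. Against the Klf4-/- peaks, 3 of the 693 segments touched a peak without overlap and 29 lay within 1 kb, while the median gap was 30350 bp for unmatched and 25900 bp for common segments. The counts moved with the lists used. With peaks limited to p-values of at most 0.1 of the largest in their list, 138 segments remained in all, 60 unmatched and 78 common, and with a split by a peak of either WT list there were 258 unmatched and 435 common segments. Mutant list 2 alone gave 5012 segments (4733 unmatched and 279 common) and mutant list 1 alone 6383 (6082 and 301). Using 1 mutant list thus raised the total and the unmatched count far more than the common count. WT list 1 alone gave 353 common segments, and leaving the Klf4-/- lists unused gave 356.

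Unmatched segments were narrow. Their median width was 300 bp (quartiles 250 and 350, range 50 to 850), and 162 of 498 were exactly 300 bp wide. Common segments had a median width of 500 bp (quartiles 350 and 575, range 50 to 1350), and 37 of 195 exceeded 600 bp, against 3 unmatched segments. WT segments, the 2232 stretches shared by the WT lists and free of Klf4-/- overlap, had a median of 400 bp.

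Simple repeats made up most of the unmatched sequence. The median share of low-complexity bases was 86.0% in unmatched segments, 37.6% in common segments, and 0 in WT segments and in the 5847 stretches shared by the Klf4-/- lists. In 361 of 498 unmatched segments (72.5%, 68.4 to 76.2) at least 50% of the bases were of low complexity, and in 160 all of them were. The same held for 90 of 195 common segments (46.2%, 39.3 to 53.2) and 375 of 2232 WT segments (16.8%, 15.3 to 18.4). Lower-case letters, which mark masked repeats in the reference, covered a median of 82.7% of unmatched, 77.0% of common, 11.4% of WT and 13.6% of Klf4-/- segments, and 36.4% of the reference as a whole. Median GC content was 41.2% in unmatched and 42.7% in common segments, near the 41.7% of the whole reference, and 51.4% in WT segments.

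Common segments held another kind of repeat as well. To measure repeated sequence, each run of 31 bases (31-mer) was counted in the whole reference. A median of 36.5% of the 31-mers of common segments occurred at 2 or more places, against 7.04% in unmatched segments. In 81 of 195 common segments (41.5%, 34.9 to 48.5) at least 50% of the 31-mers were repeated, compared with 64 of 498 unmatched segments (12.9%, 10.2 to 16.1) and 194 of 2232 WT segments (8.69%). These WT segments include 200 that overlap a mutant stretch, and without them the share was 111 of 2032 (5.46%). Segments also shared sequence with each other. A 31-mer of another mutant segment occurred in 79 of 195 common (40.5%) and 84 of 498 unmatched segments (16.9%), so the 693 segments are not independent sequences.

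The simple repeats were largely of the CA/TG type. Of all hexamers counted on either strand, CACACA was present in the largest number of unmatched segments, 414 of 498 (83.1%), followed by TACACA in 82.5% and ACACAC in 81.3%. In common segments TACACA led with 65.6%. Among the 2032 WT segments without a mutant stretch the leading hexamer was ACGCCC, which lies in the KLF4 motif on the other strand, in 49.2%, and CACACA was present in 41.8%. The longer words ACACACAC and ATACACAC, chosen after these counts were seen and overlapping each other in part, were then counted in 200 bp windows centred on the segments. ACACACAC was in 306 of 498 unmatched windows (61.4%, 57.1 to 65.6), 63 of 195 common windows (32.3%, 26.1 to 39.2) and 371 of 2232 WT windows (16.6%), against 5.34% of all windows of the reference. For ATACACAC the shares were 59.4%, 32.8% and 13.7%, against 2.51%. In whole lists ACACACAC was in 44.5% and 35.0% of mutant peaks, 28.5% and 16.8% of WT peaks, and 9.11% and 11.1% of Klf4-/- peaks.

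KLF4-type motifs were in a smaller share of the windows of mutant segments than of WT segments. The shares of all windows of the reference stand beside them without a test, since the segments are not independent sequences. GGGCGTGG was in none of the 498 unmatched and none of the 195 common windows, counts of 0 that allow shares of up to 0.602% and 1.54% by the limit of 3 counts of the total (the upper Wilson bounds are 0.766% and 1.93%), while it was in 405 of 2232 WT windows (18.1%, 16.6 to 19.8) and in 0.434% of all windows of the reference. The version with T in place of the CpG cytosine, GGGTGTGG, was in 2 unmatched windows (0.402%, 0.110 to 1.45), in no common window and in 294 WT windows (13.2%), against 1.16% of all windows. The GC box core GGGCGG was in 1 unmatched window (0.201%, 0.0355 to 1.13), 3 common windows (1.54%, 0.525 to 4.42) and 735 WT windows (32.9%), against 1.92% of all windows. All were searched on both strands, and none of these words contains another. Over whole segments, most of which are wider than the windows, GGGCGTGG was in 0 unmatched and 1 common segment, chr8:15519651-15520100, 17482 bp from a TSS of Gm45677. GGGTGTGG was in 7 unmatched and 0 common segments and GGGCGG in 3 and 4, against 493, 352 and 863 of the 2232 WT segments for the 3 words. The windows with GGGCGG were at chr8:84933751-84934050 in an intron with Mast1 as the nearest gene (unmatched) and at chr1:100180001-100180350 (intron, nearest gene Cntnap5b), chr2:73867751-73868200 (intron, nearest gene Atf2) and chr7:130834251-130834800 (intron, nearest gene Plekha1), all common. The segments with motifs were singled out after their motifs were seen. In Klf4-/- segments the shares of GGGCGTGG, GGGTGTGG and GGGCGG were 3.64%, 5.83% and 15.4%.

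Sequences of segments of at most 300 bp with small p-values show these compositions. The 4 unmatched segments printed here each overlapped a peak of 1 WT list, with p-values of 1e-12, 2.71e-05 and 4.86e-05 in WT list 1 for those on chromosomes 10, 19 and 14 and 6.87e-05 in WT list 2 for the one on chromosome 4. The unmatched segments are ordered by the larger of their mutant p-values, the plus strand of GRCm38 (mm10) is given 5′ to 3′, and capitals mark every ACACAC or GTGTGT. The segment at chr10:3112601-3112900 is intergenic, 6087 bp from a TSS of Gm3318, with p-values of 1e-12 and 1.58e-10. The segment at chr19:36741201-36741450 is intergenic, 4548 bp from a TSS of Ppp1r3c, with 1.13e-08 and 7.71e-06. It holds GGGTGTGG, left in lower case, and its window is among the 2 unmatched ones with that word. The segment at chr14:121212201-121212500 is intronic, with 8.02e-06 and 7.68e-06, and its nearest TSS, 36206 bp away, belongs to B930095G15Rik. The last one, at chr4:146456451-146456600, lies in an intron, 7428 bp from a TSS of Zfp992, with 1.08e-05 and 1.15e-08, and is shown because it holds no such hexamer and no low-complexity base.
chr10:3112601-3112900: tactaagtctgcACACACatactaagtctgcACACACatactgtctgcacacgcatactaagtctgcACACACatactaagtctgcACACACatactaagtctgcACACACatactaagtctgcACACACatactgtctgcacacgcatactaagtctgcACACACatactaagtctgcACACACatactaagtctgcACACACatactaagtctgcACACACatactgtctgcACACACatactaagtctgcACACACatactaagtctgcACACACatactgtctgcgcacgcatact
chr19:36741201-36741450: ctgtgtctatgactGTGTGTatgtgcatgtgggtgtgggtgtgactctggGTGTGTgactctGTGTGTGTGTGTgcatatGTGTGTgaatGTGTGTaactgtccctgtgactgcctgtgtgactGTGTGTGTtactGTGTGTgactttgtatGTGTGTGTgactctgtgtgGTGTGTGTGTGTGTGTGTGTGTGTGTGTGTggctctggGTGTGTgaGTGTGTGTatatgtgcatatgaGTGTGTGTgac
chr14:121212201-121212500: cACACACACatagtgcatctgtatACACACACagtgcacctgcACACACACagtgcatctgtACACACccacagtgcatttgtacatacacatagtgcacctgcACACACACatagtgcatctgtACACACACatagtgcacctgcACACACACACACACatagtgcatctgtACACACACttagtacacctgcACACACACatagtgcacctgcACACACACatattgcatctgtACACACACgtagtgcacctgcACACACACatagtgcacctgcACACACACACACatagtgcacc
chr4:146456451-146456600: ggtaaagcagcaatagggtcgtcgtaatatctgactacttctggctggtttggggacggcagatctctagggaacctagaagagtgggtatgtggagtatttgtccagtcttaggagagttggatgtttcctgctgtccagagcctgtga

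A common segment of that width is shown in the same way, since it holds neither hexamer and no low-complexity base. The segment at chr11:3138351-3138550 lies in Sfi1, 2344 bp from one of its TSS, with mutant p-values of 2.30e-06 and 2.57e-06, and 36.5% of its 31-mers are repeated.
chr11:3138351-3138550: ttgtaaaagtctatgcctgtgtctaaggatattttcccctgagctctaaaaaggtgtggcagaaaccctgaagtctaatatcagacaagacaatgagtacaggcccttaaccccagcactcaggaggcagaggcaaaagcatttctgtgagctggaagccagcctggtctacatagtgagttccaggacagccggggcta

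Low complexity divided the segments further. Among common segments, the 105 with less than 50% low-complexity bases had a median p at the floor of 1e-12 in both mutant lists and a median of 54.7% repeated 31-mers, whereas the 90 others had medians of 2.30e-06 and 7.71e-06 and 12.8%. Promoters, defined as within 3 kb of a TSS, held 34.3% of the former and 16.7% of the latter. Among unmatched segments the median p in mutant list 1 was 2.65e-05 in both classes and that in mutant list 2 was 2.28e-05 in those of higher complexity and 4.02e-05 in the others, and promoters held 27 of 137 segments of higher complexity (19.7%) and 48 of the 361 others (13.3%).

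Chromosome 8 held 119 of 498 unmatched (23.9%, 20.4 to 27.8) and 44 of 195 common segments (22.6%, 17.3 to 28.9), although it makes up 4.74% of the bases of the reference. Whole lists showed the same chromosome in excess, with 19.6% and 20.3% of mutant peaks, 17.5% and 14.8% of WT peaks and 11.5% and 10.6% of Klf4-/- peaks. In peaks of mESC with their own Klf4 gene it held 5.10% and 5.04% in the ATAC-seq lists, 4.92% to 5.18% in the M-ATAC lists and 5.36% and 5.22% in the CTCF ChIP-seq lists. On chromosome 8 the segments ran from base 3424701 to base 127233000 and were of low complexity, by the 50% measure, in 74.8% of unmatched and 72.7% of common segments. The part that copy number may play was not tested. Chromosome X held 2 unmatched segments and no common one, with 6.18% of the reference bases and 2.51% to 2.82% of the M-ATAC peaks. The X share was as low in the WT lists (0.335% and 0.485% of peaks) and in WT segments (0.358%), while it was 1.43% and 1.91% of peaks in the Klf4-/- lists and 1.76% of Klf4-/- segments. Leaving out chromosome 8 gave 379 unmatched and 151 common segments.

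Some segments lay in dense groups. When segments less than 100 kb apart were joined, 7 groups had 5 or more members. The group with most members, at chr9:3001151-3038450, held 17 common segments and no unmatched one, 500 to 1350 bp wide, with a median GC of 34.9% and a median of 93.7% repeated 31-mers. It covers predicted genes such as Gm10715, Gm10717 and Gm11168, and accounts for most of the 25 common segments of chromosome 9. Groups of 12 and 8 segments lay at chr1:85079751-85345300 and chr1:85494801-85625650, the second of which spans Sp110 and Sp140, genes of nuclear body proteins. Their median repeated share was 70.6% and 64.5%, with no low-complexity bases at the median. A group of 7 at chr4:147354401-147563500 spans the zinc finger genes Zfp978, Zfp982 and Zfp985. Near the end of chromosome 8, 6 segments at chr8:125915051-126172050 in the region of Kcnk1 and Map3k21 were of low complexity at a median of 94.1%, and 5 at chr8:20511101-20678850 had a median of 89.6% repeated 31-mers. At chr10:3109401-3117200, 5 segments consisted of low-complexity sequence at a median of 99.6%, and their 31-mers occurred at a median of 55 places.

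A smaller share of mutant than of WT or Klf4-/- segments lay within 3 kb of a TSS. The nearest TSS was a median of 11905 bp away for unmatched segments (quartiles 4781 and 28025), 9314 bp for common segments (2770 and 22519) and 3886.5 bp for WT segments. Promoters held 75 of 498 unmatched segments (15.1%, 12.2 to 18.5), 51 of 195 common segments (26.2%, 20.5 to 32.7) and 1033 of 2232 WT segments (46.3%, 44.2 to 48.3). In Klf4-/- segments the share was 40.1%. The share of the reference within 3 kb of a TSS was not computed, so these shares are not set against the genome. A TSS lay inside 2 unmatched segments (0.402%) and 10 common segments (5.13%), against 519 WT segments (23.3%). Outside promoters, 216 unmatched segments (43.4%) were intronic, 200 (40.2%) intergenic and 7 exonic. The corresponding numbers for common segments were 72, 68 and 4. Counting only protein-coding genes put 8.63% of unmatched and 19.5% of common segments within 3 kb of a TSS, and 5.82% and 12.8% lay within 1 kb of any TSS.

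Genes nearest to mutant segments had a lower median TPM in WT mESC than genes nearest to WT segments. The nearest gene was protein-coding for 47.6% of unmatched and 47.7% of common segments, compared with 65.2% of WT segments. A TPM value was found for the nearest gene of 402 unmatched and 159 common segments, with medians of 0.19 and 0.12 TPM, while the median was 4.51 TPM for 1988 WT segments and 3.90 TPM for 5259 Klf4-/- segments. At least 1 TPM was reached by the nearest gene of 153 unmatched segments (38.1%, 33.4 to 42.9), 40 common segments (25.2%, 19.1 to 32.4) and 1178 WT segments (59.3%, 57.1 to 61.4), and by 28.2% of the 47606 genes in the table. These shares carry no test. Taking the nearest protein-coding gene instead gave 58.2% of 490 unmatched and 46.6% of 193 common segments at 1 TPM or more, with medians of 2.495 and 0.63 TPM, against 9.49 TPM for WT segments. The share over all protein-coding genes was not computed, and the 28.2% above covers genes of every type. For segments within 3 kb of a TSS, the nearest gene of any type reached 1 TPM in 27 of 61 (44.3%) unmatched and 11 of 46 (23.9%) common segments, against 738 of 975 WT segments (75.7%). These RNA values come from WT mESC and not from the cells of the peak lists, and replicates were merged. The same RNA held all 7 mESC markers at 95.1 TPM (Tfcp2l1) or more, with Dppa5a highest at 5394 TPM and a sum of 7609 TPM, and 6 of 7 markers of feeder fibroblasts at 1 TPM or more, with Col1a1 highest at 48.7 TPM, Lum at 0.08 TPM and a sum of 122 TPM. What remaining feeder cells contributed to the nearest-gene values was not tested.

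TSS were those of any annotated transcript, whereas TPM is per gene. A segment within 3 kb of a TSS thus need not lie at the promoter that accounts for the TPM. Some promoter segments had an expressed gene as their nearest gene. Among unmatched segments these were 2727 bp from a TSS of Gapdh, a glycolytic enzyme at 6547 TPM, at chr6:125159451-125159800, 1207 bp from Dpy30, a subunit of histone H3K4 methyltransferase complexes (215.8 TPM), and 26 bp from Sin3b, a corepressor scaffold (about 100 TPM), at chr8:72753351-72753800. Brd3, a bromodomain protein of the BET family (62.8 TPM), and Lrrc40 (58.95 TPM), whose TSS lay inside the segment, followed. The larger mutant p-value of these 5 ran from 2.65e-05 (Sin3b) to 7.62e-05 (Dpy30). The segments near Gapdh and Brd3 overlapped a peak of WT list 1, with p-values there of 1.26e-05 and 3.12e-06, and the others overlapped no WT peak. Among common segments the leading genes were Def8 (34.6 TPM), where the p in mutant list 2 was at the floor, Nudt14, a Nudix hydrolase (34.0 TPM), Vps52, a subunit of a vesicle tethering complex (20.1 TPM), and Srrm4os (13.4 TPM). Low-complexity bases made up 71.5% to 100% of these 4 common segments.

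The 10 unmatched segments with the smallest p-values included 1 whose nearest gene exceeded 1 TPM, among the 8 with a value. At the floor in both mutant lists were chr9:101097451-101098000 in an intron (nearest gene Gm37553), chr11:3198801-3199350 near Fau-ps2, chr15:29989701-29990250, 13884 bp from Gm24554, and chr16:74549501-74550050, 56212 bp from Gm49671. The 31-mers of the chr15 and chr16 segments occurred at medians of 4605 and 4996 places. Next came segments near Gm3318, Asb4 (26136 bp away), Gm27878, Vmn1r-ps2, Plcb4, a phospholipase C gene at 20.8 TPM with a TSS 525 bp away, and Tpte. Of these 10 segments, 9 overlapped a peak of 1 WT list, with p-values there from 1e-12 to 3.38e-05, and the one near Asb4 overlapped none. In common segments 78 shared the floor value, so that width set the order. The widest were chr9:3037101-3038450 over a TSS of Gm10715 (1350 bp), chr9:3029151-3030450 over a TSS of Gm10717 (1300 bp) and chr10:3115951-3117200, 1787 bp from Gm3318 (1250 bp). They were followed by segments nearest to Tmem125, Gm11168, Gm10718, Gm5626, 2700054A10Rik, Gm24878 and Gm13717, of 1050 to 1200 bp. None of these 10 had a nearest gene above 1.72 TPM among the 7 with a value.

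Few listed genes had a mutant segment nearby, at a background that leaves little to count in lists of this size. Of 55450 annotated genes, 3.09% had a mutant segment within 50 kb of a TSS, 2.34% a unmatched and 0.911% a common one. Among 25 pluripotency genes, including Klf2, Klf4, Klf5, Nanog and Esrrb, the count was 0, also within 100 kb, and it was 0 of 20 lineage genes within 50 kb. In the Klf and Sp family 3 of 26 genes had a unmatched segment within 50 kb. Sp7 (osterix), a regulator of bone formation at 0.20 TPM, had one 169 bp from a TSS, at chr15:102367351-102367750, with p-values of 2.65e-05 and 7.68e-06 and low complexity throughout. The same segment lay 38393 bp from Sp1, a broadly expressed GC box factor at 58.4 TPM. Klf1, the erythroid member (0.36 TPM), had a segment 31823 bp away at chr8:84933751-84934050. Of 20 germline genes only Dnajb3 (0.67 TPM) had one, at 18019 bp, chr1:88223801-88224050. The lists were given no test, and 1 more or 1 fewer gene would move each share by several percentage points. Within 10 kb, where 422 of the 55450 annotated genes (0.761%) had a segment, the Klf and Sp family count was 1, Sp7, and no germline gene was found. Within 100 kb, where 3176 annotated genes (5.73%) had one, the counts were 4 in the Klf and Sp family, 3 germline genes and 1 lineage gene, Eomes.

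A smaller share of mutant than of WT or Klf4-/- segments overlapped a peak of accessible chromatin in mESC. A peak of any of the 8 ATAC-type libraries overlapped 3 of 498 unmatched (0.602%, 0.205 to 1.76) and 9 of 195 common segments (4.62%, 2.45 to 8.54). Such a peak was at 1026 of 2232 WT segments (46.0%) and at 68.15% of Klf4-/- segments. The share of the reference in such peaks was not computed, so the mutant shares are not set against the genome. Per library, 2 unmatched segments overlapped a peak in M-ATAC 1, 2 and 3 and 1 in M-ATAC 4, and 2 did in each ATAC-seq library. Common segments numbered 3, 3, 4 and 4 in the M-ATAC libraries and 2 in each ATAC-seq library. The mean share over these 6 libraries was 0.368% ± 0.082 (SD, n = 6) for unmatched and 1.54% ± 0.46 (SD, n = 6) for common segments. The share of unmatched segments was lower in 6 of 6 libraries, with a mean difference of -1.17 ± 0.508 percentage points (SD, n = 6). The 6 libraries score the same segments, so they are not independent counts. Their SD covers the spread between libraries and not the choice of regions. No p is given, since the segments were chosen with these data known and 1 to 4 of them made each value. Without WT list 2 in the split the difference was -0.311, with a split by a peak of either WT list -0.597, with mutant list 2 alone -1.93, with at least 50% of a segment covered -0.431 and with a −log10 q of at least 5 for the mESC peaks -0.606 percentage points. It was -4.34 without removal of Klf4-/- peaks and -3.21 (percentage points) with peaks of p-values at most 0.1 of the largest. Unconverted M-ATAC libraries had 2 and 3 unmatched and 2 and 2 common segments.

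The accessible segments can be named, having been singled out after their overlaps were seen. The unmatched ones were chr11:69073251-69073650 over the TSS of Snord118, a small nucleolar RNA gene, with a peak in 8 of 8 libraries, chr8:95833901-95834100 near Gm31805 (7 libraries) and chr13:9763351-9763600, 750 bp from a TSS of Zmynd11 (1 library). None of these 3 held low-complexity bases. Among common segments, chr6:47778001-47778500, 3124 bp from the Y RNA gene Rny3, had a peak in 8 libraries and chr7:130834251-130834800 in an intron (nearest gene Plekha1) in 4. The segment 13 bp from a TSS of Duxf3, a double homeobox gene of the early embryo, at chr10:58231651-58232000, had a peak in 3 libraries. The other 6 had one in 1 or 2 libraries.

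CTCF, the zinc finger protein that binds insulators, had peaks at a smaller share of unmatched than of WT segments. The shares of common segments lay between them in each of the 4 libraries. In the CTCF ChIP-seq libraries 3 and 3 unmatched segments (0.602% each) and 5 and 5 common segments (2.56% each, 1.10 to 5.86) overlapped a peak. CTCF M-ChIP peaks overlapped 4 and 4 unmatched segments (0.803% each) and 9 and 7 common segments (4.62%, 2.45 to 8.54, and 3.59%, 1.75 to 7.22). A peak of any of the 4 CTCF libraries was at 1.20% of unmatched, 8.72% of common and 9.45% of WT segments, and at 14.3% of the common segments with less than 50% low-complexity bases. WT segments had shares of 6.99% and 8.38% in CTCF ChIP-seq and 6.05% and 5.20% in CTCF M-ChIP. With 2 libraries each, these are values without a test.

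Methylation could be read at few mutant segments, since the merged M-ATAC table joins cytosines to M-ATAC peaks of mESC. With at least 5 reads per cytosine, 2 unmatched segments held 5 cytosines, at which 9 of 66 reads were methylated (13.6%, 7.34 to 23.9). In 9 common segments 65 cytosines gave 237 methylated of 1409 reads (16.8%, 15.0 to 18.9). Among the 9 common segments with a peak of an ATAC-type library, 10.8% to 94.6% of the 31-mers were repeated. How reads of repeated sequence bear on these levels was not tested. At 1037 WT segments the level was 0.722% (0.700 to 0.744) over 30474 cytosines, and over the whole table it was 1.87%. These values describe mESC with their own Klf4 gene and say nothing of methylation in the mutant cells.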

How the data were processed

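The authors called peaks with PeaKDEck on subsampled libraries and deposited a p-value per peak, floored at 1e-12. For M-ATAC, ATAC-seq and CTCF the deposited lists carry the −log10 q of each MACS2 summit, after trimming by the authors (Trim Galore, version 0.4.4) and alignment against mm10 by Bismark 0.18.1 or Bowtie2. The authors deposited merged RNA-seq as TPM and, for merged M-ATAC, methylated and unmethylated read counts per cytosine. Of 32740 such cytosines checked, 100% lay at a C or G of the reference.

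Stretches shared by both replicate lists were kept where no Klf4-/- peak overlapped by at least 1 bp. Low complexity came from dustmasker 2.17.0 with 64 bp of flank, genes from GENCODE M21, and all else from Python 3.11.15 with NumPy 2.4.6, SciPy 1.17.1, pandas 2.3.3 and Numba 0.67.0. Lists were compared by exact permutation over samples. An exact sign-flip test over 6 libraries had also been planned for accessibility and was run, but its p is not reported, since it scores the chosen segments. Named were, per group, the 10 segments with the smallest larger mutant p-value, up to 5 promoter segments with the highest TPM, and every listed gene within 50 kb. The segments and the gene lists (pluripotency, Klf and Sp family, germline, lineage, mESC and feeder markers) were chosen with earlier results of these data known. The repeat words, the chromosome 8 share and the low-complexity split were added after the data were seen. Unconverted CTCF M-ChIP, merged peak lists and CTCF motif tables were not used.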

Additional observations from a re-analysis of the deposited data

Results flagged for a closer look

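Among the 4 M-ATAC libraries, the share of unmatched segments that overlapped a peak was 0.2008% in library 4 (1 of 498 segments) and 0.402% in each of the others (2 of 498). A single segment makes this gap, and 5 such groups of 4 libraries were tested, of which chance sets apart about 1 in 20 for continuous values. With counts this small, any library that differs from 3 equal ones stands apart, and the chance rate for such counts was not computed.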

How the results depend on the processing

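Of the alternative values, 130 kept their direction and side of the threshold or stayed within their error or within 1.5 times the count, 29 moved and 2 lost their direction. Another 9, all of the accessibility difference, kept their direction but would not have passed the test whose p is not reported. The cause was not tested where none is given. Limiting p-values to 0.1 of the largest gave 138 segments, 60 unmatched and 78 common. Keeping peaks that overlap Klf4-/- peaks gave 356 common segments, and a split by either WT list 258 unmatched and 435 common. Segments with under 50% low complexity, a choice made after seeing the data, numbered 242 (137 and 105). Leaving out 1 list at a time gave 693 to 6383 segments, 340 to 6082 unmatched and 212 to 353 common. The accessibility difference was -0.431 percentage points with 50% of a segment covered, -0.606 at a −log10 q of at least 5, -0.597 with a split by either WT list, -4.34 without removal of Klf4-/- peaks, -3.21 with the limited p-values, -1.93 to -0.311 with 1 list left out and -1.28 to -1.03 with 1 of the 6 libraries left out, where the 5 others cannot pass the threshold. The difference in median list width, -25 bp, was 0 without peaks that overlap Klf4-/- peaks and -50 to 0 with 1 list left out. With the same number of peaks in each list it was -125 bp (exact permutation p 0.3333, the smallest possible), and the difference in Klf4-/- overlap went from -8.46 to -15.6 percentage points.

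Within 3 kb of a protein-coding TSS lay 8.63% of unmatched and 19.5% of common segments, and within 1 kb of any TSS 5.82% and 12.8%. The nearest protein-coding gene reached 1 TPM for 58.2% and 46.6%. Repeated 31-mers in place of low complexity gave 12.9% of unmatched segments, and leaving out chromosome 8, also chosen after seeing the data, 38.4% low-complexity common segments. Annotated genes with a segment numbered 422 within 10 kb and 3176 within 100 kb, with 1 Klf or Sp gene within 10 kb, 0 and 3 germline genes, and 1 lineage gene within 100 kb. With the replicate number as a block (replicate block), the mean GC difference between mutant and WT lists stayed at -5.36 percentage points, and 2 pairs cannot give an exact permutation p below 0.5.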
